A study of Mus musculus with 8 samples.

Results

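Spermatogenesis-associated (Spata) genes were followed in the testis of mice aged 27 days, 4 of them wild type by title and 4 mutant (Brwd1-/-), with 1 array of whole-testis RNA each. They were taken by name: every probe set annotated with a single gene symbol made of Spata and a number, with or without further letters. This gave 22 genes with 37 probe sets, of 18193 genes with a single symbol on the array, and each gene was represented by its brightest probe set, taken as the highest mean log2 value over the 8 arrays. The shared name stands for a link to spermatogenesis, not for a common pathway or protein family, so the group joins proteins of unlike roles. The mice were untreated. For the controls the title says wild type and the genotype entry names Brwd1+/-, so they may carry 1 mutant copy; wild type is used here. Brwd1 encodes a protein with bromodomains, which bind acetylated histones, and WD repeats. The labels give neither the strain nor the kind of mutation.

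Germ cells of the testis pass through meiosis and then, as spermatids, build an acrosome, condense their nucleus, assemble a tail and wrap mitochondria around its midpiece. Several Spata proteins belong to these steps. Spata6 is needed to build the connecting piece that joins sperm head and tail, Spata16 is a Golgi protein linked to acrosome formation, and Spata19 and Spata18 are mitochondrial proteins. Others work in many tissues, such as Spata2, which brings the deubiquitinase Cyld to signalling complexes, and Spata5, an AAA ATPase. The series' design text states that germ cells of this age have finished meiosis and are partway through the spermatid stage.

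Intensities are array brightness on a linear scale, with each array scaled to a trimmed mean of 500. Differences between genotypes are on the log2(intensity + 16) scale, mutant minus wild type, and were tested with limma over 13787 genes, with p-values adjusted over all of them and a threshold of 0.05 for a call. The arrays split by replicate number. Summed intensity of 10 epididymis marker genes was 494 to 2272 in replicates 1 and 2 of both genotypes and 57300 to 70696 in replicates 3 and 4. The labels name no batch, and each of these batches holds 2 mice of each genotype. The test was therefore run in 3 fits: without a block, blocked by replicate number (the replicate block) and blocked by the split of replicates 1 and 2 from 3 and 4 (the batch block). A call is credited to the fits that made it. Only 3 of 8 mice correlated best with the mouse of their own number. Calls made with the replicate block alone therefore rest on a pairing that the labels do not give. Among the Spata genes these are the calls of Spata19, Spata48 and Spata6. Mutant replicate 1 stood apart in a list of 10 spermatid genes, mostly of nuclear proteins such as Prm2, with Spem1 and Gsg1 added. Their intensities summed to 4323 there, to 16336 to 33308 in the other mutants and to 80884 to 148182 in wild type. In whole testis, fewer spermatids and less RNA per spermatid cannot be told apart. The Brwd1 probe set, at 290 ± 46.7 in controls against 365 ± 71.0 in mutants (mean ± SD, n = 4 mice), was not called in any fit, and the labels do not say whether it lies in the mutated part.

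Of the 22 Spata genes 21 passed the filter on dim values, and their differences ranged from large and negative to near 0, with Spata24 between. In 11 genes the log2 difference was -1 or below, a size found in 4.15% of all genes tested, and in none was it 1 or above, against 0.116%. Spata18 fell without a block, where 0.283% of all genes were called (0.268% lower). With the replicate block 7 members fell, where 3.45% of all genes were called (3.12% lower): Spata18, Spata3, Spata19, Spata48, Spata31d1d, Spata6 and Spata24. With the batch block 4 of these fell, where 2.63% of all genes were called (2.16% lower): Spata18, Spata3, Spata31d1d and Spata24. No member rose in any fit, where 0.0145%, 0.326% and 0.471% of all genes did, and 14 members were not called. Lower values in every mutant than in any wild type were found in 9 members, against 5.26% of all genes, and the reverse in 0 members, against 2.53%. The median log2 difference was -1.04 over the 21 members and 0.07 over all genes. Without mutant replicate 1 the batch-blocked count was 10, all lower, where 4.01% of all genes were called lower. Without both mice of number 1 the replicate-blocked count was 8, all lower, against 3.5% of all genes. Spata24 was then no longer called, and Spata21 and Spata25 were.

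**Figure D1:**
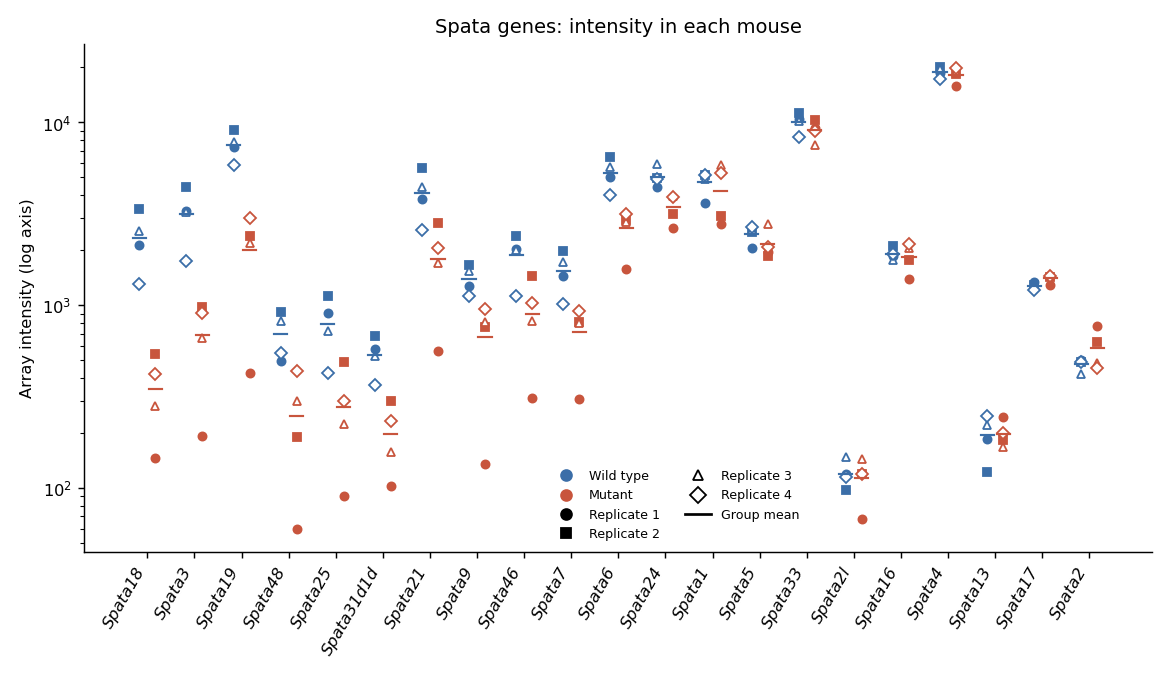
Array intensity (log axis) of 21 Spata genes in each of 8 mice, wild type in blue and mutant in red, with a symbol for each replicate number, open symbols for replicates 3 and 4 and a line at each group mean. Genes are ordered by their log2 difference. From Spata18 to Spata6 the mutant means lie below the wild-type means, and mutant replicate 1 is the lowest mouse of each.

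Sequences before the gene starts are shown for Spata18, Spata3 and Spata19, which had the largest differences, and for members that hold letters of a cAMP response element, the site bound by CREM, a transcription factor of spermatids. Of these, Spata48, Spata6 and Spata7 had a log2 difference of -1 or below, and Spata2, near 0, is shown for contrast. Spata1, Spata5 and the untested Spata5l1 hold such letters too and are not printed. RefSeq windows of GRCm38.p6 run from 250 bases before to 50 after a start, and 20 of the 22 members had at least 1. The windows are chr5:73651130-73651429 for Spata18, chr1:86021695-86021994 for Spata3, chr9:27396557-27396856 for the upstream start of Spata19, chr11:11484310-11484609 for start 2 of 3 of Spata48, chr4:111719760-111720059 for the upstream start of Spata6 and chr12:98627892-98628191 for Spata7, all on the plus strand, and chr2:167492825-167493124 on the minus strand for Spata2. Capitals mark TGACG on either strand, so that CGTCA is the same letters read on the other strand, and TGACGTCA where it is complete.
Spata18 promoter: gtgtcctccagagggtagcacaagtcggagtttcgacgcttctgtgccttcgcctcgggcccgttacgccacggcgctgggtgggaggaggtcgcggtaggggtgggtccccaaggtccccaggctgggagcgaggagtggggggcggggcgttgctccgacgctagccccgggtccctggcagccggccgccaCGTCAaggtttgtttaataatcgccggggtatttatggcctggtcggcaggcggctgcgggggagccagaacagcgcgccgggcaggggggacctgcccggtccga
Spata3 promoter: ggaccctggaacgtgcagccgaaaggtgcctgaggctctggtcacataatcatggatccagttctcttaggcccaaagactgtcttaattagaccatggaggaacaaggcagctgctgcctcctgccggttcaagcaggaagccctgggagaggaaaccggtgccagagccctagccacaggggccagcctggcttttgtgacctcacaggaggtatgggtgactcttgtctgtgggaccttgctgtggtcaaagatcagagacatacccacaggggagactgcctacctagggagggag
Spata19 promoter: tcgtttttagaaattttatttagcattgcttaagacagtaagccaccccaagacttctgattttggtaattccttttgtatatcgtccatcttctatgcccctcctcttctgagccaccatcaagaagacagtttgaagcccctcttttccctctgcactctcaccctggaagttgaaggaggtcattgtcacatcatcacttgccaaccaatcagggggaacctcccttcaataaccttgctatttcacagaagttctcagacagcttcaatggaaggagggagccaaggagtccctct
Spata48 promoter: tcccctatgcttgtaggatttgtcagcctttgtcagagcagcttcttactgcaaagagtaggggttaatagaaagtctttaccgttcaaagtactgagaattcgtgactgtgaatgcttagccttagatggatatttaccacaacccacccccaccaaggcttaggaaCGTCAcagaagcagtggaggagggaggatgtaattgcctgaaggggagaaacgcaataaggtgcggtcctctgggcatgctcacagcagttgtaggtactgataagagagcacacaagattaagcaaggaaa
Spata6 promoter: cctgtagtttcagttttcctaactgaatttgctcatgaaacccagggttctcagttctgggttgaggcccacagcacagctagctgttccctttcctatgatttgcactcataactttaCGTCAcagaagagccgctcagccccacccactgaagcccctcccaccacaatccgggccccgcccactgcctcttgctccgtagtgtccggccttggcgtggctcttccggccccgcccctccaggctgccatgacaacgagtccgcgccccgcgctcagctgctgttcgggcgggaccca
Spata7 promoter: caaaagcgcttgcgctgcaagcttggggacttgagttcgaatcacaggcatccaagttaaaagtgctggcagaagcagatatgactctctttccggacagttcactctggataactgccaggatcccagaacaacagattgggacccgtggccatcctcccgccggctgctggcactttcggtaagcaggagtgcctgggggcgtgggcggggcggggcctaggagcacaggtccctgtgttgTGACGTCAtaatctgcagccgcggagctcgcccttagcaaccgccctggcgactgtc
Spata2 promoter: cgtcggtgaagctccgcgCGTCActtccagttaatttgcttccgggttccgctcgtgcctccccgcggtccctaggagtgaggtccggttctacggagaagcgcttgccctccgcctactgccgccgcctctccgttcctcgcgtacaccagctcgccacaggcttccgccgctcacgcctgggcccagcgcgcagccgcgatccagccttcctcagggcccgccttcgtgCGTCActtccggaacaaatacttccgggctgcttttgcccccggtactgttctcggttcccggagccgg

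Spata7 alone held the complete element TGACGTCA, 7 bases before its start, which 1.79% of all 32851 RefSeq windows, 3.34% of tested genes and 4.1% of tested genes at -1 or below hold. The 5-letter TGACG, which is part of it, stood in 4 of the 11 members with a log2 difference of -1 or below (Spata18, Spata48, Spata6 and Spata7) and in 3 of the 8 other tested members with a window (Spata1, Spata2 and Spata5). By gene this is 36.4% and 37.5%, against 33.5% of 11121 tested genes, and by window 20.8% of all windows hold it. The shares of both groups of members lay near that of all tested genes. TATAAA was found in a window of Spata48 and of Spata4 only, and in 13.6% of all windows. For the X-box, the site bound by RFX factors of ciliated cells, only a set spelling was searched, in a short and a full form. Variants of that spelling were not counted, so the search cannot tell whether other members hold an X-box. The short form was found in Spata33 only, against 1.18% of all windows. The full form, which contains the short one, was found in no member and in 0.07% of all windows. All were searched on both strands. Matches are letters, not sites shown to be bound.

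The mitochondrial members Spata18 and Spata19 had large differences, and Spata33, also of sperm mitochondria, was not called. Spata18, also known as Mieap, encodes a protein of mitochondrial quality control. It read 2147, 3378, 2558 and 1308 in wild-type replicates 1 to 4 and 147, 543, 281 and 420 in mutant replicates 1 to 4. Every mutant lay below every wild type. Spata18 fell 6.79-fold, a log2 difference of -2.76 ± 0.41 (SE). It was called in all 3 fits (limma, adjusted p = 0.0393 unblocked, 0.0105 with the replicate block, 0.0169 with the batch block). Leaving out any 1 of wild-type replicates 1, 2 and 3 and mutant replicates 3 and 4 ended the unblocked call (adjusted p from 0.0722 to 0.186), and leaving out any 1 of the other 3 mice did not. Its adjusted p ran from 0.00104 to 0.251 over 24 alternatives.

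Spata19 encodes a protein of the sperm mitochondrial sheath that mouse sperm need for motility. It read 7354, 9071, 7775 and 5863 in wild type and 428, 2396, 2202 and 3011 in mutants. The groups did not overlap, and mutant replicate 1 lay far below the other mutants, at 5.69% of the wild-type mean. The fold was 4.55, a log2 difference of -2.18 ± 0.54 (SE), and -1.56 without mutant replicate 1. Spata19 was called with the replicate block (limma, adjusted p = 0.0369), missed the threshold without a block (0.130) and with the batch block (0.0583), and was called without a block when mutant replicate 1 was left out (0.0235). Spata33, which anchors the phosphatase calcineurin to sperm mitochondria, read 10482, 11315, 10204 and 8299 in wild type and 9309, 10282, 7558 and 9006 in mutants. The groups overlapped, with a log2 difference of -0.16 ± 0.13 (SE; limma, adjusted p = 0.900). Genes listed for the mitochondrial sheath had 16 measured, of which 1 fell with the replicate block and 0 were called in the other fits (limma; 5 at an unadjusted p under 0.05 without a block), with a median log2 difference of -0.08. The 1 that fell was Cypt1, a multicopy spermatid gene named for the perinuclear theca of the sperm head, not for the sheath. Its log2 difference was -1.83 (limma, adjusted p = 0.0362 with the replicate block). Armc12, a sheath protein of sperm mitochondria, stood at -1.71 and Smcp, also of the sheath, at -1.63, both without a call. The list also holds genes active in many tissues, such as Vdac2, Vdac3 and Mfn2, which lay near 0, so its median mixes unlike genes. Of 5 calcineurin genes none was called in any of the 3 fits (limma; 0 at an unadjusted p under 0.05), and their median log2 difference was 0.03.

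Spata6, needed for the connecting piece at the sperm neck, was called on 1 probe set. Spata6 read 5045, 6492, 5714 and 4024 in wild type and 1576, 2932, 2864 and 3160 in mutants on its brightest probe set. All mutants lay below all wild types. Its log2 difference was -1.04 ± 0.24 (SE), a fold of 2.05, called with the replicate block (limma, adjusted p = 0.0307) and neither without a block (0.111) nor with the batch block (0.0508). Of 14 measured genes listed for the connecting piece and head-tail coupling, 5 fell with the replicate block, 3 with the batch block and 0 without one (limma; 10 at an unadjusted p under 0.05), none rose in any fit, and the median log2 difference was -1.09. Spatc1, a centrosomal protein of the sperm neck, had the smallest p of them, with a log2 difference of -2.33, and fell with both blocks (limma, adjusted p = 0.0187 and 0.0370). Oaz3, an antizyme of spermatids, had one of -2.07 and fell with the replicate block only (limma, adjusted p = 0.0280).

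Spata24 is also called TIPT for its binding to a TBP-related factor. On its brighter probe set it read 4421, 4963, 5936 and 4908 in wild type and 2660, 3176, 3985 and 3903 in mutants. The groups did not overlap and the spread was small, so that this modest difference of -0.57 ± 0.16 (SE), a 1.48-fold fall, was called with both blocks (limma, adjusted p = 0.0255 and 0.0305) and not without one (0.181). Mutant replicate 1 was the lowest here too, and the difference was -0.45 without it. The batch block still called Spata24 without that mouse (limma, adjusted p = 0.0157). The replicate block did not call it without both mice of number 1 (0.0529). Spata4, a testis protein, read 17369 to 20087 in wild type and 15911 to 19751 in mutants, and Spata17, a calmodulin-binding protein, 1208 to 1344 and 1297 to 1452. Both pairs of groups overlapped, with log2 differences of -0.05 ± 0.10 and 0.13 ± 0.11 (SE), neither called.

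Among members tied to the acrosome and sperm head, Spata16 and Spata46 had unlike values. Spata16 read 1862, 2115, 1769 and 1914 in wild type and 1388, 1773, 2051 and 2165 in mutants, a log2 difference of -0.07 ± 0.16 (SE; limma, adjusted p = 0.997). Spata46, a protein of the sperm head, read 2040, 2379, 2001 and 1123 in wild type and 310, 1442, 820 and 1025 in mutants. Only mutant replicate 2 was above the lowest wild type, and the log2 difference of -1.19 ± 0.44 (SE) was not called (limma, adjusted p = 0.374, and 0.134 and 0.194 with replicate and batch block). Of 17 measured genes listed for acrosome formation and round-headed sperm none was called in any of the 3 fits (limma; 4 lower and 1 higher at an unadjusted p under 0.05 without a block), and their median log2 difference was -0.09. Spaca4 and Actl7a, both of the acrosomal region, had the smallest p of that list, with log2 differences of -1.25 and -1.76. Acrv1 had -1.34, Spaca7 -1.10 and Spaca1 -0.89, while Zpbp and Golga3 lay near 0 and Smap2 had 0.60. In all, 10 of the 17 genes had a difference below 0, so the median of this list also mixes unlike genes.

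The other members with large differences are less well known. Spata3 read 3262, 4425, 3252 and 1749 in wild type and 192, 976, 665 and 904 in mutants. The groups did not overlap, and the log2 difference was -2.34 ± 0.50 (SE), a fold of 5.05, called with both blocks (limma, adjusted p = 0.0275 and 0.0447) and not without one (0.0927). Spata31d1d, of a gene cluster on chromosome 13 whose near-identical copies may share probes, read 577, 677, 529 and 365 in wild type and 103, 300, 158 and 232 in mutants. Its groups did not overlap either. The log2 difference was -1.43 ± 0.32 (SE), a fold of 2.70, with a call from both blocks (limma, adjusted p = 0.0295 and 0.0448) and none without (0.0972). Spata48 read 496, 922, 823 and 550 in wild type and 59.6, 189, 300.1 and 438 in mutants, again without overlap. Its log2 difference of -1.67 ± 0.50 (SE) was called with the replicate block (limma, adjusted p = 0.0489, and 0.0762 with the batch block).

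Spata25 and Spata21 overlapped through 1 mouse of each genotype. Spata25 read 910, 1120, 719 and 424 in wild type and 90.5, 492, 223 and 298 in mutants, a log2 difference of -1.60 ± 0.47 (SE). Spata21, an EF-hand protein, read 3819, 5631, 4426 and 2585 in wild type and 559, 2813, 1706 and 2058 in mutants, a log2 difference of -1.36 ± 0.46 (SE). In both genes mutant replicate 2 lay above wild-type replicate 4. Neither was called in the 3 fits, and both were called with either block when mutant replicate 1, or number 1, was left out. Spata9 read 1269, 1664, 1533 and 1121 in wild type and 136, 763, 811 and 960 in mutants, a log2 difference of -1.33 ± 0.54 (SE) without overlap and without a call in the 3 fits. Without mutant replicate 1 it was -0.71. The batch block called Spata9 without that mouse (limma, adjusted p = 0.0341). The replicate block did not call it without both mice of number 1 (0.0673).

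Members with roles in other tissues included 1 with a large difference. Spata7, a ciliary protein whose loss causes retinal degeneration, read 1455, 1972, 1730 and 1019 in wild type and 305, 809, 802 and 935 in mutants. The groups did not overlap, and the log2 difference of -1.17 ± 0.36 (SE) was not called (limma, adjusted p = 0.226, and 0.0771 and 0.115 with replicate and batch block). Spata2 read 422 to 502 in wild type and 455 to 772 in mutants, with a log2 difference of 0.26 ± 0.19 (SE), the highest of the 21. Its relative Spata2l had one of -0.10, the exchange factor gene Spata13 0.06, Spata5 -0.19 and the little-known Spata1 -0.21, all with overlapping groups and no call. Spata5l1, an ATPase related to Spata5, was below the filter and not tested. It read 3.70 to 31.5 in wild type and 2.06 to 4.54 in mutants, levels at which the table does not show whether a signal lay above background.

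**Figure D2:**
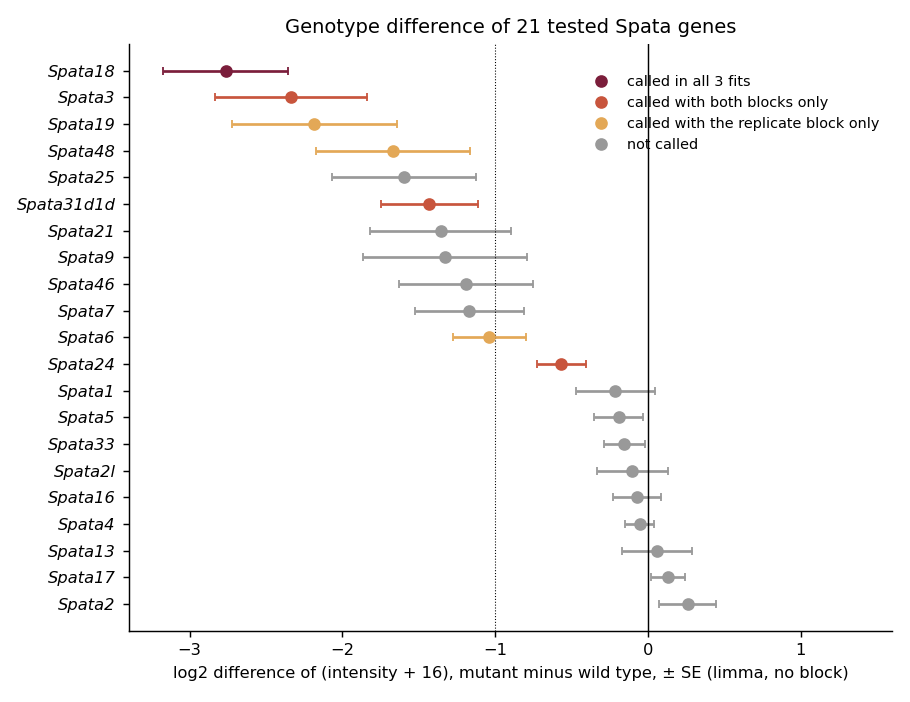
Log2 difference between genotypes (mutant minus wild type, of intensity + 16) of 21 Spata genes with its standard error, n = 4 mice per genotype, coloured by the fits that called it. Spata18, at -2.76, was called in all 3 fits, and the dotted line marks -1.

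The same mice lay at the extremes in most members with large differences. In these 11 genes mutant replicate 1 was the lowest mutant in 11, wild-type replicate 2 the highest wild type in 11 and wild-type replicate 4 the lowest wild type in 10, Spata48 being the exception. The order of the other mutants varied: the highest mutant was replicate 2 in 6 of the genes, Spata18 among them, and replicate 4 in 5, Spata48 among them. Mutant replicate 1 was also the lowest mutant in 94.2% of all genes with a log2 difference of -1 or below, and in 20.4% of all genes tested. For the wild-type extremes such shares were not counted. Genes at -1 or below were chosen on a mean that includes mutant replicate 1. A low value in that mouse therefore helps a gene into the set, and these shares are partly fixed by the choice. As a share of the wild-type mean, the 11 genes had a median of 11.4% in mutant replicate 1, 54.6% in replicate 2, 41.5% in replicate 3 and a value between these in replicate 4. The lowest share in mutant replicate 1 was 5.69% (Spata19) and the highest 29.6% (Spata6). Spata18 was the lowest of the 11 genes in mutant replicates 2, 3 and 4, at 23.1%, 11.95% and 17.9%. In the 10 other tested genes the median share was 81.8% in mutant replicate 1 and 95.6% to 104% in the other mutants.

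The sum of the 10 listed spermatid genes kept this order within each genotype, as given above for mutant replicate 1. Wild-type replicate 4 was lowest and replicate 2 highest. Of those 10 genes 1 fell unblocked, 8 with the replicate block and 4 with the other, and their median log2 difference was -2.83. Summed markers of Sertoli cells and spermatogonia were highest in the mutant that was lowest for the 11 Spata genes. Of 13 Sertoli cell genes none was called in any of the 3 fits (limma; 1 higher at an unadjusted p under 0.05 without a block), 0 had a difference below 0, and their summed intensity was 49590 to 60374 in wild type and 53714 to 74034 in mutants. Of 12 spermatogonial genes Utf1, a marker of undifferentiated spermatogonia, rose with the replicate block only (limma, adjusted p = 0.0485). Utf1 was dim, at 67.8 ± 28.6 in wild type and 132 ± 46.3 in mutants (mean ± SD), and its groups overlapped. The sum of the 12 genes was 8940 to 11912 in wild type and 9102 to 15592 in mutants. Sums were 19558 to 31669 and 24847 to 34800 for 7 Leydig cell genes, and 9843 to 13472 and 11861 to 17320 for 11 macrophage genes, of which Fcgr3, an Fc receptor, rose with both blocks. No Leydig cell or epididymis gene was called in any of the 3 fits (limma; 1 of 7 and 0 of 10 at an unadjusted p under 0.05 without a block). The part of cell make-up in the Spata values was not tested. Genes of meiotic single-strand DNA binding and repair were not called in any of the 3 fits, 0 of 12 (limma; 0 at an unadjusted p under 0.05 without a block and 1 with the batch block), and their median log2 difference was -0.02.

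Differences were larger within replicates 1 and 2 than within replicates 3 and 4 in all 11 members with a log2 difference of -1 or below, and negative within both. Spata18 had -3.17 within the first batch and -2.36 within the second, Spata19 -2.98 and -1.38, Spata48 -2.48 and -0.86, and Spata9 -2.09 and -0.56. At -1 or below were 11 members within replicates 1 and 2 and 5 within replicates 3 and 4. Shares over all genes were not counted for these numbers. The 10 listed spermatid genes showed the same order, with medians of -3.57 within the first batch and -1.86 within the second. Mutant replicate 1 belongs to the first batch, and it was the lowest mutant in 94.2% of all genes with a log2 difference of -1 or below. That set was chosen with this mouse included, which also favours larger differences within the first batch. The change of the difference between batches, tested as an interaction with limma, was called in 0 of 21 members and in 0 of all genes (0%). At an unadjusted p of 0.05 it passed in 3 members (Spata1, Spata16 and Spata48) and in 5.35% of all genes, and the lowest adjusted p of a member was 0.738.

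**Figure D3:**
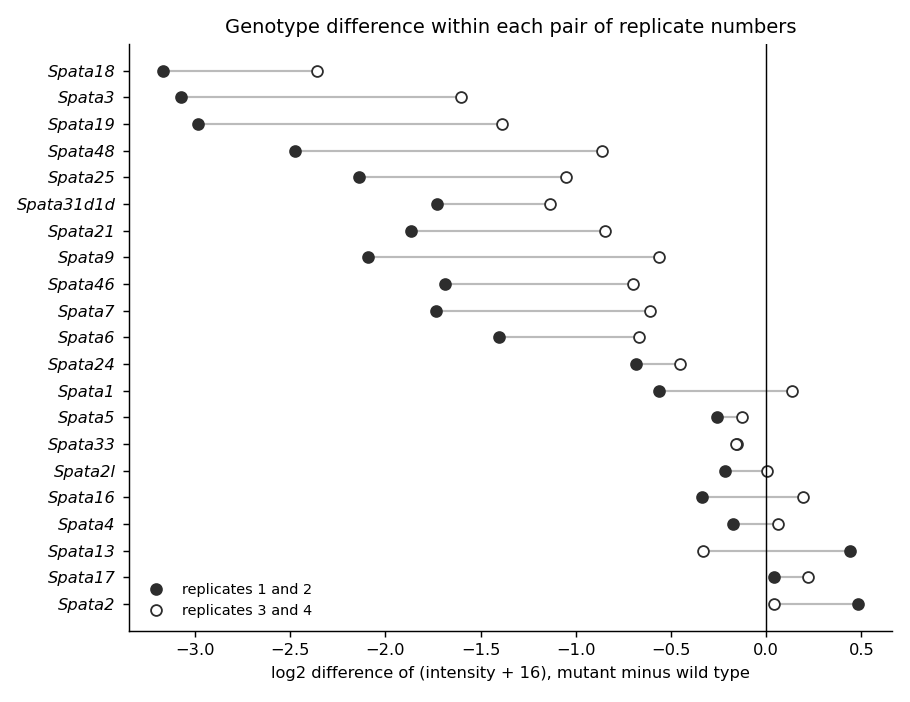
Log2 difference between genotypes of 21 Spata genes within replicates 1 and 2 (filled, 2 mice per genotype) and within replicates 3 and 4 (open, 2 mice per genotype). The filled point lies further left in each gene from Spata18 to Spata6, and the interaction was called in none.

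Probe sets of a gene did not always move together. Among the members 9 had more than 1 probe set, and 11 of the 15 other probe sets passed the filter. All 3 probe sets of Spata3 lay lower in every mutant, with log2 differences of -2.83, -2.34 and -2.16. Spata6 had a second probe set that read 2194 to 2821 in wild type and 1806 to 2709 in mutants, a difference of -0.16, and another of 0.09. That other probe set read 1327 to 1843 in replicates 1 and 2 of both genotypes and 421 to 693 in replicates 3 and 4. The mean over the probe sets of Spata6 gave -0.37, not called (limma, adjusted p = 0.651), so its fall rests on 1 probe set. Spata24 gave -0.57 and -0.16, and Spata9 -1.33 and -0.27. Those dimmer probe sets of Spata24 and Spata9 read 352 to 522 and 63.7 to 170 over all mice. The dimmer probe set of Spata24 was not called in any fit. The mean over its probe sets gave -0.36, not called without a block (limma, adjusted p = 0.394), so the calls of Spata24 also rest on 1 probe set. Spata17 had 0.13 on the brighter probe set and -0.51 on the dimmer, and neither was called. The probe sets of Spata5 (-0.09 to -0.31), Spata13 (0.02 and 0.06) and Spata16 (-0.07 and 0.10) all stayed near 0. On single probe sets 0 of the members' 32 were called without a block, where 0.111% of all 27022 probe sets were. The replicate block called 9 of them, all lower, against 2.33% of all (2.12% lower), and the batch block 6, all lower, against 1.77% (1.45% lower). At an unadjusted p under 0.05 in limma without a block, 14 of the 32 probe sets and 12 of the 21 genes passed, all lower. The share over all probe sets or all genes was not counted for this fit, nor for the unadjusted counts of the gene lists above. In the same fit with a pseudocount of 1, 12 of the 21 members and 6.86% of all genes were lower at that threshold.

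**Figure D4:**
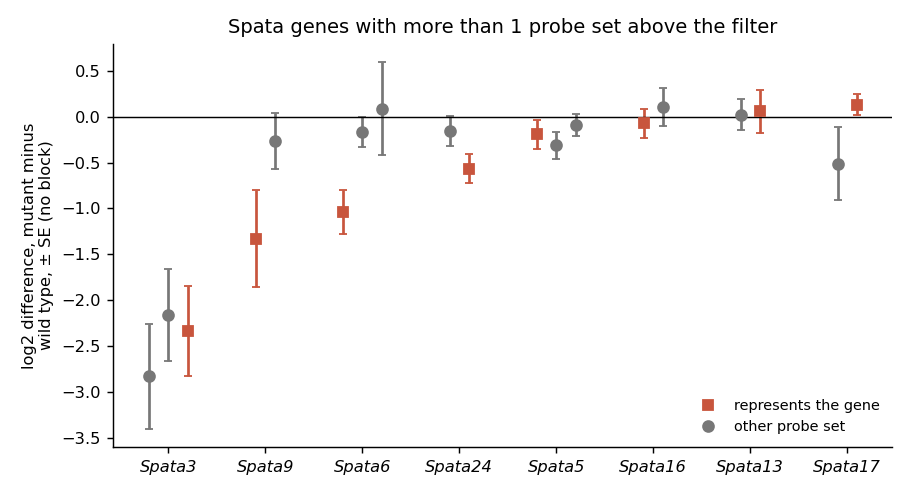
Log2 difference between genotypes with its standard error for each probe set above the filter of 8 Spata genes that have more than 1, the representing probe set as a square. The probe sets of Spata3 lie together between -2.83 and -2.16, while those of Spata6 range from -1.04 to 0.09.

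The promoters of members with large differences had few CpG dinucleotides. This property was looked at after the values were seen and is given as a description. Counting CpG in the 300-base window, with the highest window for a gene with several, the 11 members with a log2 difference of -1 or below had a median of 4 and the 8 other tested members with a window a median of 29. Spata9 had 1, Spata21 3, Spata3, Spata19, Spata25 and Spata46 4 each, and Spata31d1d and Spata48 5 each. Spata6 had 16, Spata7 17 and Spata18 30, so that the member with the largest fall did not share the low count. Of the others, Spata4 and Spata16 had 8 and 9, and the remaining 6 had 22 to 48. All tested genes showed the same pattern: 10 or fewer CpG were found in 72.35% of 463 genes with a difference of -1 or below and in 19.5% of 10658 other genes, against 72.7% and 25.0% of the members. The members' shares lay near those of all genes.

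**Figure D5:**
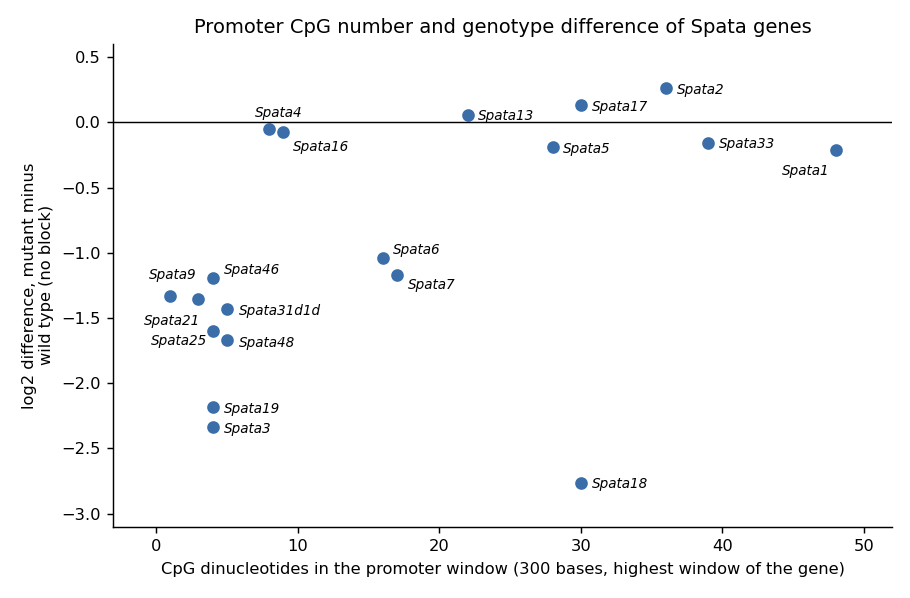
Number of CpG dinucleotides in the RefSeq promoter window (300 bases) against the log2 difference between genotypes for 19 tested Spata genes. Of the 11 genes at -1 or below, 8 have 5 or fewer CpG, and Spata6, Spata7 and Spata18 have 16, 17 and 30.

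The 22 members lie on 12 chromosomes, none of them chromosome 16, which holds Brwd1. Their nearest protein-coding neighbours, by the order of gene starts in the RefSeq table, were looked up for the 11 members with large differences. Of 22 neighbours 14 were tested and none was called in any of the 3 fits, with log2 differences from -1.32 to 0.43 and a median of 0.06. The lowest was Rhobtb3 beside Spata9. Zswim1 and Neurl2 on either side of Spata25 had -0.12 and 0.22, and Necap2 and Szrd1 beside Spata21 0.17 and 0.15. Zpbp, an acrosomal gene next to Spata48, had -0.09.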

How the data were processed

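Whole testis RNA of 8 mice was hybridised to Affymetrix arrays, 1 per mouse. The deposited values are linear intensity values that the authors made with GCOS (software named per the submitters' processing notes); for GCOS no version or setting was at hand. The values show scaling to a trimmed mean of 500, and no detection calls were used. Median intensities were 90.7 to 124, and the number of arrays limits precision. Values were taken as log2(value + 16), which understates changes of dim genes. Probe sets with a mean log2 value above the 40th percentile were kept (27022 of 45037), and a gene was represented by the one with the highest mean, giving 13787 genes. For Spata3 the highest mean intensity would pick another of its probe sets.

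Genotypes were compared with limma 3.58.1 in R 4.3.3 (lmFit, eBayes with a trend, two-sided, Benjamini-Hochberg adjustment), and the fit was tested on simulated data. Deviations of same-numbered mice correlated (r from 0.515 to 0.677 in 4 pairs), and the replicate block treats these mice as pairs. The labels do not give this pairing, and the correlations do not set it apart from the split into batches. Differently numbered mice of the same batch correlated as well (r from 0.194 to 0.673), those of different batches negatively (-0.814 to -0.277), and 3 of 8 mice were closest to their own number. P-values rest on the spread between mice, at 1 array a mouse. Members named in full were those called in any of the 3 fits, those with a log2 difference of at least 1 in size and those without overlap between genotypes. Members, lists and tests were chosen with earlier results of these data known. Symbols were matched through Entrez identifiers. Figures were drawn with matplotlib 3.10.9. Alternatives covered normalization, pseudocounts, filters, the variance model, the choice of probe set, both blocks and leaving out mice.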

Additional observations from a re-analysis of the deposited data

Results flagged for a closer look

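In 6 of the 44 groups of 4 mice examined, 1 mouse lay far from the others. The groups are 22 genes read in the same 8 mice and are not independent. The chance rate of about 5% for a single group therefore does not measure this count, and the share over all genes was not counted. In mutants this mouse was replicate 1, lowest, in Spata19, Spata6, Spata7 and Spata9, with a gap to the next mouse of 0.838, 0.858, 0.861 and 0.878 of the group's range on the log2 scale. In wild type it was replicate 1, lowest, in Spata1 (0.856) and replicate 3, lowest, in Spata2 (0.843).

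Spata1 and Spata16 had opposite genotype differences in the batches of replicates: both mutants lay below both wild types in replicates 1 and 2 and above them in replicates 3 and 4. The log2 difference changed by 0.69 in Spata1 (-0.56 to 0.13) and by 0.53 in Spata16 (-0.34 to 0.19). Tested as an interaction with limma, the unadjusted p was 0.0177 and 0.0377, and the adjusted p 0.738 for both.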

How the results depend on the processing

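The count of members called (1 without a block, Spata18) was 7 with the replicate block and 4 for the batch block, 10 for the latter without mutant replicate 1, 8 with the replicate block and no mice of number 1 (an alternative chosen after seeing the data), and 0 with a pseudocount of 1, within replicates 1 and 2 or within replicates 3 and 4 (limma; 12, 13 and 12 of 21, all lower, at an unadjusted p under 0.05, against 6.86%, 7.97% and 7.64% of all genes). Leaving out single mice gave 0 to 3. The count over all genes (39) was 475 (replicate block) and 363 (batch block), and 527 and 630 without number 1 or mutant replicate 1. It was 23 and 94 with pseudocounts of 1 and 64, 22 with a filter at the 60th percentile, 0 within replicates 1 and 2, and 0 to 185 without single mice. Of the members' probe sets 0 were called, against 9 and 6 under these blocks. Why these counts moved was not tested, apart from the samples and genes each alternative left out. The interaction was called in 0 members under all 4 alternatives tried. For 12 genes given in full, 253 of their values under alternatives stayed on the same side of the threshold, 27 passed it and 8, all of Spata18, no longer did; none changed sign.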
